A study of Mus musculus with 13 samples.

Results

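This account follows 10 genes of heme breakdown, heme synthesis and iron handling (Hmox1, Hmox2, Blvra, Blvrb, Alas1, Fech, Fth1, Ftl1, Tfrc and Slc40a1) in mouse cortical neurons exposed to rotenone, an inhibitor of mitochondrial complex I. Members were found by the gene symbol in the array's probe descriptions, except for Fth1, whose probe has no description and was found by its RefSeq accession. They are measured by 12 of the 24613 probes with a signal, 3 of them for Fech, and all 10 genes were among the 11057 genes tested. A probe whose symbol, Slc39a1, was once an alias of Slc40a1 was left out, because it measures a zinc transporter.

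Neurons came from the cortex of Swiss albino mouse fetuses at gestation days 15 to 16 and were at day 5 of culture. There were 4 vehicle controls, and 3 samples for each exposure to 10 nM rotenone, which lasted 8 h, 15 h or 24 h. RNA from each of the 13 samples was hybridised to its own 1-colour Illumina MouseRef-8 V1.1 bead array. The labels do not give the time at which the vehicle cultures were sampled, nor whether replicates were separate cultures. The spread behind each p-value is therefore that between these samples, which may be technical. All 3 rotenone groups are compared with the same 4 control arrays. The neuronal label is that given for the samples. Of 11 neuron markers 8 were detected, and Rbfox3, Nefl and Gad2 were not. Markers of other cells were detected too: 7 of 9 for astrocytes, 10 of 14 for microglia and macrophages, and 8 of 10 for the oligodendrocyte lineage. In controls the summed normalized signal was 12639 to 14355 for neuron markers and 14041 to 16031 for astrocyte markers. Detection of these markers therefore does not tell neurons from a mixed culture. Replicate 1 of 15 h stood apart: it correlated with the rest of the 15 h group at r = 0.975 on average, where the other arrays reached 0.986 to 0.996 within their groups.

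Heme oxygenase opens the heme ring and releases iron, carbon monoxide and biliverdin, which biliverdin reductase turns into bilirubin. Hmox1 is the form induced by oxidative stress, heme and metals, largely through the transcription factor NRF2, while Hmox2 is the constitutive form of neurons. Iron that is set free is stored in ferritin, a shell of heavy (Fth1) and light (Ftl1) chains, or leaves the cell through ferroportin (Slc40a1), and iron bound to transferrin enters through the transferrin receptor (Tfrc). Iron regulatory proteins also set the ferritin, transferrin receptor and ferroportin messages after transcription, which an array of messages sees only in part.

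After 15 h and 24 h of rotenone the inducible heme oxygenase, the NADPH-dependent biliverdin reductase Blvrb and both ferritin chains were higher than in vehicle control, and the constitutive heme oxygenase and the transferrin receptor were lower. After 15 h, 5 of the 10 genes rose (Hmox1, Blvrb, Alas1, Fth1 and Ftl1) and 2 fell (Hmox2 and Tfrc), where a gene is called if its adjusted p in limma is below 0.05. In that comparison 50.1% of all genes tested were called, 25.4% higher and 24.7% lower. After 24 h, 5 rose (Hmox1, Blvrb, Fth1, Ftl1 and Slc40a1) and the same 2 fell, where 54.8% of all genes were called, 27.4% higher and 27.3% lower. The median log2 change of the 10 genes was 0.40 at 15 h and 0.24 at 24 h, against 0.02 and 0.01 over all genes tested. Under the 3 other scalings described next, the median of the 10 was 0.08 to 0.21 at 15 h and -0.08 to 0.12 at 24 h, below 0 with no scaling. Without replicate 1 of 15 h, 5 genes were higher and Hmox2 alone was lower at 15 h, with Hmox1 at 4.11, Blvrb at 0.81, Fth1 at 0.75, Alas1 at 0.63, Ftl1 at 0.38 and Hmox2 at -0.62 and Tfrc no longer called (-0.56). At 8 h limma called 0 of the 10 genes and 0.434% of all genes, although 6 of the 10 had an unadjusted p below 0.05, as did 10.7% of all genes. The median change of the 10 genes at 8 h was -0.35, against -0.00 over all genes.

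The scaling of the arrays bears on these directions. The mean deposited signal of an array was 325 to 405 in controls, 340 to 403 at 8 h, 255 to 287 at 15 h and 222 to 259 at 24 h. Quantile normalization, the setting reported throughout, gives all arrays the same distribution. The authors' normalized values also divide by each array's median, without background correction, so they are close to median scaling and not an independent check. The array median lay near the lowest detected signal (65.9 and 62.3 in control replicate 1, 51.2 and 49.9 in 24 h replicate 1). Both of these scalings therefore line the arrays up at dim signals. With median scaling, no scaling or the authors' normalized values, the median change of all genes shifted to between -0.25 and -0.16 at 15 h and between -0.39 and -0.24 at 24 h. Higher genes then made up 18.2% to 35.4% of the calls at 8 h, in place of 33.3%, 13.8% to 23.7% at 15 h, in place of 50.8%, and 12.1% to 24.1% at 24 h, in place of 50.1%. Under these 3 scalings Hmox1, Blvrb, Fth1 and Slc40a1 stayed higher and Hmox2 and Tfrc lower at 24 h with their calls kept. The exceptions at 24 h were Ftl1, which lost its call under 2 of the 3, and Blvra and Alas1, which became lower.

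The arrays of the series are on 2 chips, but the chip that the labels give (the labelled chip) differs from the one (the matched chip) found by matching each sample's signals to the arrays of the authors' gene profile. The groups are the same either way, so both assignments were tried as blocks and singly, which leaves 1 or 2 arrays in a group.

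**Figure D1:**
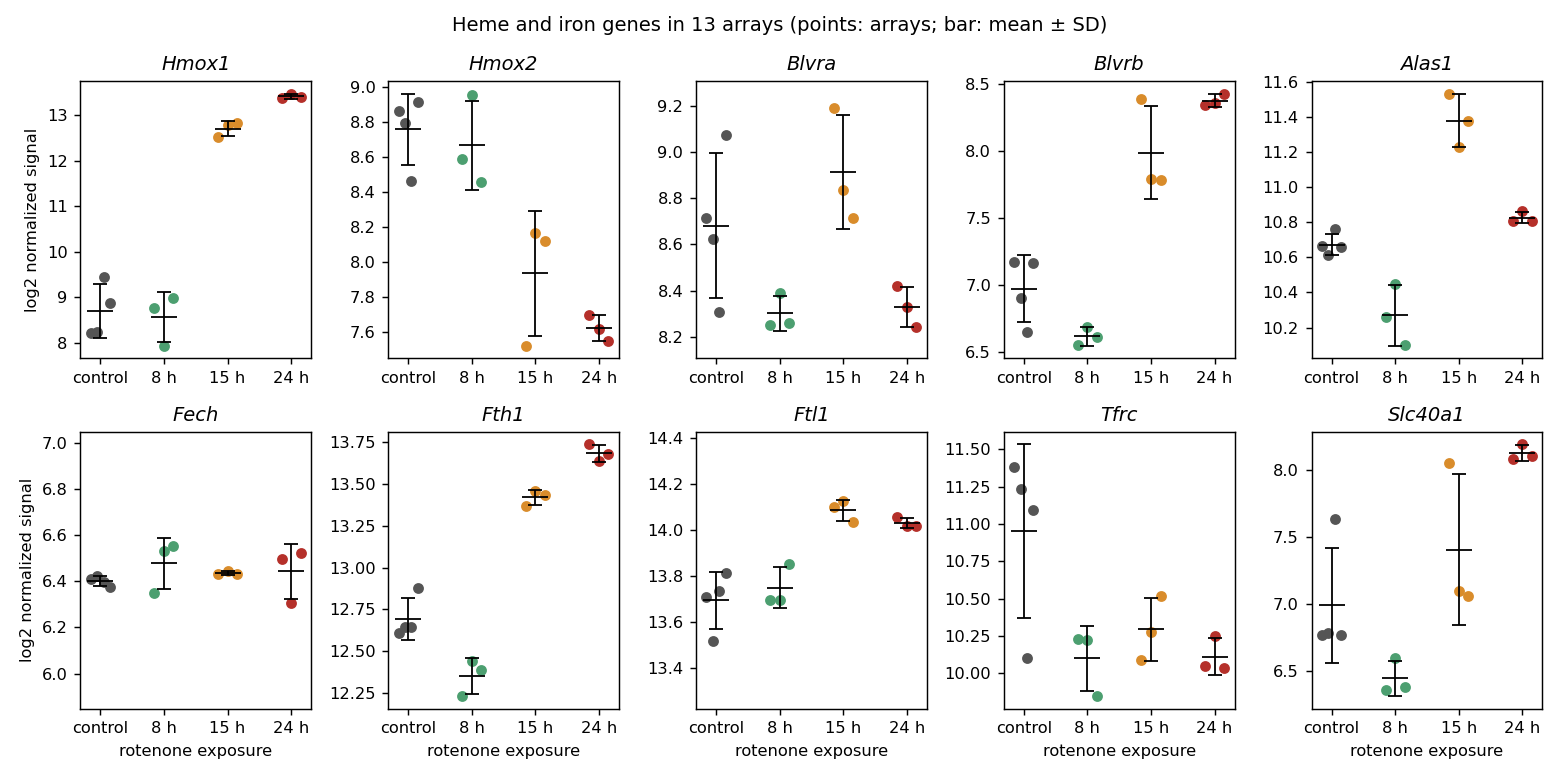
Log2 normalized signal (vertical axis, own scale in each panel) of the 10 genes in vehicle control and after 8 h, 15 h and 24 h of rotenone, with a point for each of the 13 arrays and bars for the mean ± SD. Hmox1 lies between 7.94 and 9.46 in controls and at 8 h and above 12.5 in all arrays of 15 h and 24 h, while Fech stays between 6.31 and 6.55.

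Hmox1 had a log2 normalized signal of 8.21, 8.23, 9.46 and 8.87 in the 4 vehicle controls, 8.76, 7.94 and 8.99 after 8 h, 12.51, 12.77 and 12.82 after 15 h, and 13.37, 13.47 and 13.39 after 24 h. The control and 8 h arrays overlapped, the 15 h arrays all lay above them, and the 24 h arrays all lay above the 15 h arrays. The change was 4.01 ± 0.26 (SE) at 15 h, 16.1-fold (limma, adjusted p = 1.37e-08), and 4.72 ± 0.26 at 24 h, 26.3-fold (adjusted p = 7.41e-10). At 15 h Hmox1 had the largest rise of all 11057 genes. At 8 h the change was -0.13 ± 0.26 (adjusted p = 0.919), with a 95% interval from -0.69 to 0.43. Control replicate 3 was the highest control, and leaving out any 1 array gave 3.85 to 4.26 at 15 h and 4.55 to 4.97 at 24 h.

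Hmox2, the constitutive heme oxygenase, fell over the same hours. Its log2 signal was 8.86, 8.79, 8.46 and 8.91 in controls, 8.59, 8.95 and 8.46 after 8 h, 7.52, 8.16 and 8.12 after 15 h, and 7.70, 7.62 and 7.55 after 24 h. All 15 h and 24 h arrays lay below all control arrays. The change was -0.82 ± 0.16 at 15 h (limma, adjusted p = 0.00048) and -1.14 ± 0.16 at 24 h (adjusted p = 1.77e-05), so that the 24 h arrays held 45.5% of the control level. At 8 h it was -0.09 ± 0.16 (adjusted p = 0.901). The other scalings gave -1.34 to -1.25 at 15 h and -1.78 to -1.64 at 24 h, and the 15 h call was lost within labelled chip 2 (adjusted p = 0.0887) and matched chip 1 (adjusted p = 0.0749). The 2 heme oxygenase messages changed in opposite directions within the same arrays, under quantile normalization and under the 3 other scalings. A sample of mixed cells cannot tell fewer cells of a type from less RNA in each cell, and this holds for every gene described here.

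Of the biliverdin reductases, Blvrb, which also reduces flavins and is known from red blood cells, followed Hmox1 in direction. Its log2 signal was 7.17, 6.90, 6.65 and 7.17 in controls, 6.55, 6.69 and 6.61 after 8 h, 8.39, 7.79 and 7.78 after 15 h, and 8.34, 8.36 and 8.43 after 24 h. All arrays of 15 h and 24 h were above all controls, by 1.01 ± 0.15 at 15 h (limma, adjusted p = 3.51e-05) and by 1.40 ± 0.15 at 24 h (adjusted p = 8.06e-07). The other scalings gave 0.62 to 0.82 at 15 h and 0.84 to 1.17 at 24 h, all called. Replicate 1 of 15 h was the highest of its group.

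Blvra, the reductase that makes the main form of bilirubin in adults, was not called against control at any time. Its mean log2 signal was 8.68 ± 0.31 (SD, n = 4) in controls, 8.30 ± 0.08 at 8 h, 8.91 ± 0.25 at 15 h and 8.33 ± 0.09 at 24 h (SD, n = 3 each), and each rotenone group overlapped the controls. The changes were -0.38 ± 0.15 at 8 h (limma, adjusted p = 0.362), 0.23 ± 0.15 at 15 h (adjusted p = 0.212) and -0.35 ± 0.15 at 24 h (adjusted p = 0.061). At 24 h the other scalings gave -1.04 to -0.87 with a call (adjusted p = 3.91e-06 to 6.48e-05), and the 15 h change was negative under all 3 of them. At 15 h Blvra was called higher without control replicate 4 (0.36, adjusted p = 0.0395), within matched chip 2 (0.52, adjusted p = 0.000394) and with the replicate number as a block (0.36, adjusted p = 0.0227), and its change was 0.10 without replicate 1 of 15 h. The call at 24 h was also gained without control replicate 3 (adjusted p = 0.00936) or without replicate 1 of 15 h (adjusted p = 0.0325).

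In heme synthesis, Alas1, the rate-limiting first enzyme outside red blood cells, had a peak at 15 h. Its log2 signal was 10.66, 10.61, 10.76 and 10.66 in controls, 10.26, 10.45 and 10.10 after 8 h, 11.53, 11.23 and 11.38 after 15 h, and 10.81, 10.86 and 10.81 after 24 h. The 8 h arrays lay below all controls, the 15 h arrays above all, and the 24 h arrays only just above. The change was -0.40 ± 0.10 at 8 h (limma, adjusted p = 0.101), 0.71 ± 0.10 at 15 h (adjusted p = 1.97e-05) and 0.15 ± 0.10 at 24 h (adjusted p = 0.201). The 8 h change was called lower without 8 h replicate 2 (-0.49, adjusted p = 0.0253) or without replicate 1 of 15 h (-0.40, adjusted p = 0.0215). The rise at 15 h depended on the scaling: it was 0.10 to 0.22 and not called under the 3 others (adjusted p = 0.0868 to 0.6), and at 24 h they gave -0.70 to -0.46 with a call as lower. Even with the median of all genes taken off, those 24 h values were negative, from -0.31 to -0.22, against 0.14 with quantile normalization.

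Fech, which puts iron into the ring in the last step of heme synthesis, was not called in any comparison. Its brightest probe averaged 6.40 ± 0.02 in controls (SD, n = 4), 6.48 ± 0.11 at 8 h, 6.44 ± 0.01 at 15 h and 6.44 ± 0.12 at 24 h (SD, n = 3 each), a dim signal but detected on all 13 arrays. The 24 h change was 0.04 ± 0.07 (limma, adjusted p = 0.632), with a 95% interval from -0.10 to 0.18, and it was negative but not called under the 3 other scalings (-0.15 to -0.01). Tested on its own, 1 of the 2 other Fech probes was lower at 24 h (-0.21 ± 0.08, adjusted p = 0.0325) and the other was not called (-0.11 ± 0.10, adjusted p = 0.371). Both of these probes lay near the detection limit at 24 h. The detection p of the lower one was 0.154, 0.042 and 0.036, and that of the other was 0.198 and 0.064 in replicates 1 and 2. The probes of this gene therefore differ in call at 24 h, at signals too dim to settle it.

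**Figure D2:**
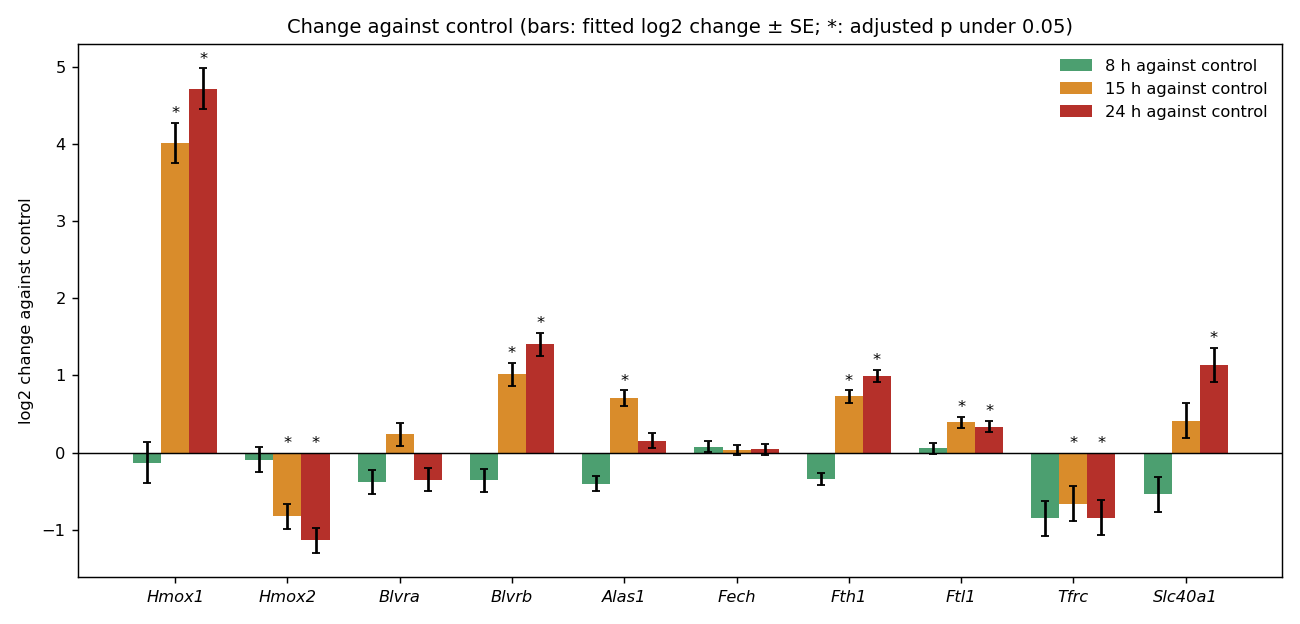
Fitted log2 change against vehicle control (vertical axis, bars ± SE) of the 10 genes after 8 h, 15 h and 24 h of rotenone, with an asterisk where the adjusted p is below 0.05. Hmox1 reaches 4.01 at 15 h and 4.72 at 24 h, the other called rises lie between 0.34 and 1.40, and no 8 h bar carries an asterisk.

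Both ferritin chains were called higher at 15 h and 24 h, although Ftl1 lost calls with some scalings and within some chips. The 250 bases before their starts are therefore shown, from RefSeq (GRCm38.p6), 5′ to 3′ on the gene's strand, with each CCAAT box (CCAAT on either strand, so ATTGG where it lies reversed) in capitals. Fth1 lies on the plus strand at chr19:9982396-9982645 and Ftl1 on the minus strand at chr7:45459887-45460136.
Fth1: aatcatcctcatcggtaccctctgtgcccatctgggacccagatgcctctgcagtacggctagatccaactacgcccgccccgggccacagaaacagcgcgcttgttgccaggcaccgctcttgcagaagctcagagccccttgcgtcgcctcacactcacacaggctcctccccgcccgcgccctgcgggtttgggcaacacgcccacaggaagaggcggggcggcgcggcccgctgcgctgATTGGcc
Ftl1: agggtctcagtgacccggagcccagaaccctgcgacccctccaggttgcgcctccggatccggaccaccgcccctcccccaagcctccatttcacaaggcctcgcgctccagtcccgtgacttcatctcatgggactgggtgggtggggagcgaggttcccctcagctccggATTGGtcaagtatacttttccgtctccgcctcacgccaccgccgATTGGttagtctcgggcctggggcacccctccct

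The printed Fth1 window holds 1 such box and the Ftl1 window 2, and 0 of the matches in the printed windows overlap another. Fth1 has 2 windows, and the one not printed holds no such box. Windows from 250 bases before to 50 after the start were at hand for 7 of the 10 genes (Hmox2, Blvra, Blvrb, Alas1, Fth1, Ftl1 and Tfrc, 13 windows in all). CCAAT was found on either strand for 4 of these 7 (Blvra, Fth1, Ftl1 and Tfrc), against 41.06% of 27025 genes and 42.98% of 8677 tested genes. The 27025 genes have 32851 windows, fewer per gene than the 7, so a match in any window is easier for the 7. Of all genes 13.99% and of tested genes 16.48% held the core of the antioxidant response element bound by NRF2 (TGACNNNGC, either strand). It was found for 1 of the 7. That match is in Blvra, on the reverse strand, shown in capitals with its flanks at chr2:127070598-127070627 of the same build.
Blvra: cacgggaattGCTCGGTCAaggctccgcct
The E-box (CACGTG) and the C/EBP-ATF element (TGATGCAA) were found in 0 of the 7, against 8.09% and 1.03% of genes. Among tested genes it was 11.19% and 0.85%. A match describes letters and is not a bound site, and windows this short hold no distant enhancer.

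Fth1, the heavy chain that oxidises iron as it enters the shell, had a log2 signal of 12.61, 12.64, 12.64 and 12.88 in controls, 12.23, 12.44 and 12.39 after 8 h, 13.37, 13.46 and 13.44 after 15 h, and 13.74, 13.64 and 13.68 after 24 h. The 4 groups did not overlap: 8 h lay below the controls, 15 h above them and 24 h above 15 h. The change was 0.73 ± 0.08 at 15 h (limma, adjusted p = 2.04e-06) and 0.99 ± 0.08 at 24 h, 1.99-fold (adjusted p = 3.9e-08). At 8 h it was -0.34 ± 0.08 (adjusted p = 0.0921), and that gap was called without replicate 2 of 8 h (adjusted p = 0.0468) or replicate 1 of 15 h (adjusted p = 0.0247). With the other scalings the change was 0.37 to 0.49 at 15 h and 0.52 to 0.77 at 24 h, all called.

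Ftl1, the light chain, which helps form the iron core, had a log2 signal of 13.71, 13.52, 13.74 and 13.81 in controls, 13.70, 13.70 and 13.85 after 8 h, 14.10, 14.12 and 14.04 after 15 h, and 14.06, 14.02 and 14.02 after 24 h. All arrays of 15 h and 24 h lay above all controls and 8 h arrays. The change was 0.39 ± 0.07 at 15 h (limma, adjusted p = 0.000353) and 0.34 ± 0.07 at 24 h (adjusted p = 0.00102). The 24 h value was 0.13 with median scaling (adjusted p = 0.138), -0.00 with no scaling (adjusted p = 0.984) and 0.24 with the authors' values (adjusted p = 0.0137). Against the median of all genes it was 0.32 to 0.49 under the 4 scalings. The change in Fth1 was not tested against that in Ftl1.

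Tfrc, the transferrin receptor, was lower, with the widest spread in the controls of the 4 iron genes. Its log2 signal was 11.38, 11.24, 10.10 and 11.09 in controls, 10.23, 10.22 and 9.85 after 8 h, 10.09, 10.27 and 10.52 after 15 h, and 10.05, 10.25 and 10.03 after 24 h. Control replicate 3 lay among the rotenone arrays and the other 3 controls lay above all of them. The change was -0.85 ± 0.23 at 8 h (limma, adjusted p = 0.126), -0.66 ± 0.23 at 15 h (adjusted p = 0.0233) and -0.84 ± 0.23 at 24 h (adjusted p = 0.00485). The other scalings gave larger falls, -1.25 to -1.15 at 15 h and -1.66 to -1.44 at 24 h. Without control replicate 3 it was -1.14 at 8 h with a call (adjusted p = 0.00076). The 15 h call was lost without any 1 of control replicates 1, 2 and 4 and of 15 h replicates 1 and 2 (adjusted p = 0.0526 to 0.0834). Neither 15 h against 8 h (adjusted p = 0.519) nor 24 h against 15 h (adjusted p = 0.645) was called.

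Slc40a1, which encodes ferroportin, the only known exporter of iron from mammalian cells, rose late. Its log2 signal was 6.77, 6.79, 7.64 and 6.77 in controls, 6.36, 6.60 and 6.38 after 8 h, 8.05, 7.10 and 7.06 after 15 h, and 8.08, 8.19 and 8.10 after 24 h. Control replicate 3 and replicate 1 of 15 h stood above the rest of their groups, and the 24 h arrays lay above all others. The change was -0.54 ± 0.23 at 8 h (limma, adjusted p = 0.387), 0.41 ± 0.23 at 15 h (adjusted p = 0.138) and 1.13 ± 0.23 at 24 h, 2.19-fold (adjusted p = 0.000457). Without control replicate 3 the 15 h change was 0.63 and called (adjusted p = 0.0136). Leaving out any 1 array gave 0.09 to 0.63 at 15 h and 1.06 to 1.35 at 24 h, where every call was kept. With the other scalings the change was 0.07 to 0.20 at 15 h, not called, and 0.59 to 0.91 at 24 h, called.

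**Figure D3:**
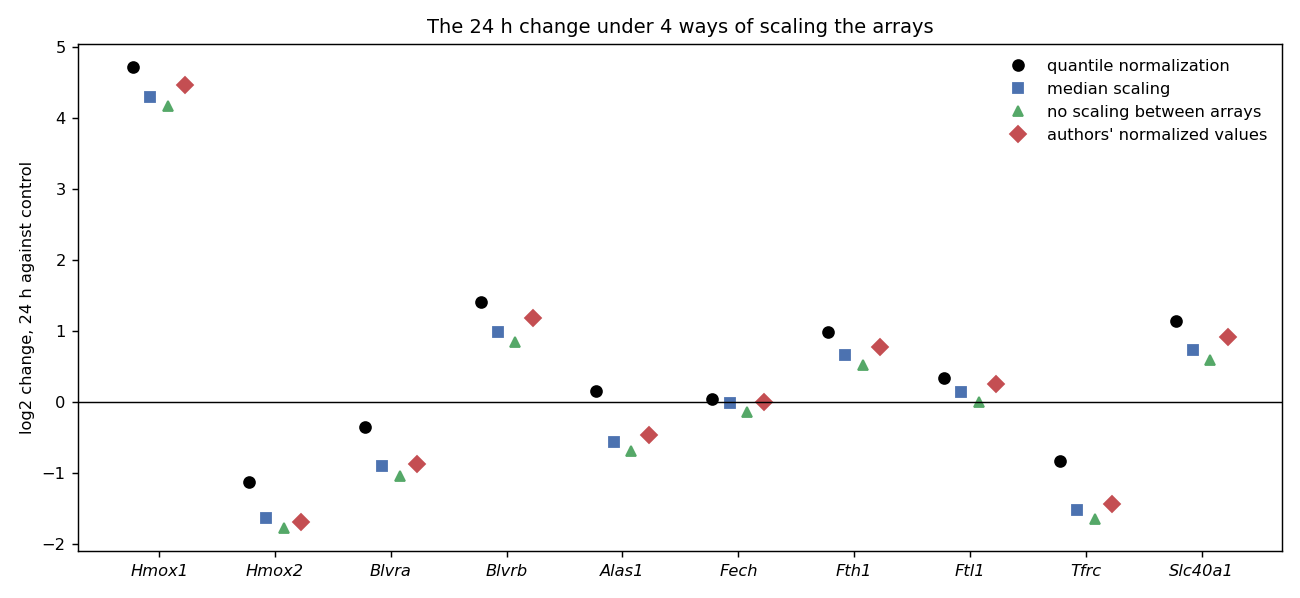
Log2 change after 24 h of rotenone against vehicle control (vertical axis) of the 10 genes under quantile normalization, median scaling, no scaling and the authors' normalized values, 1 point each. Quantile normalization gives the highest value for all 10 genes; Alas1 turns from 0.15 to between -0.70 and -0.46, and Ftl1 from 0.34 to -0.00 with no scaling.

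Most of the change fell between 8 h and 15 h. In that comparison 7 of the 10 genes were higher at 15 h (Hmox1, Blvra, Blvrb, Alas1, Fth1, Ftl1 and Slc40a1) and Hmox2 was lower, where 51.1% of all genes were called, 25.8% higher and 25.3% lower. Hmox1 was 4.14 ± 0.28 higher at 15 h than at 8 h (limma, adjusted p = 1.73e-08), Blvrb 1.37 ± 0.16 (adjusted p = 3.12e-06), Alas1 1.11 ± 0.11 (adjusted p = 3.82e-07) and Fth1 1.07 ± 0.09 (adjusted p = 7.91e-08). Slc40a1 was 0.96 ± 0.24 higher (adjusted p = 0.00347), Blvra 0.61 ± 0.16 (adjusted p = 0.00489) and Ftl1 0.34 ± 0.08 (adjusted p = 0.00205). Hmox2 was lower by -0.73 ± 0.17 (adjusted p = 0.0021). Blvra lost the call under the 3 other scalings, at 0.12 to 0.17. Higher genes were 50.5% of all calls here, and 18.9% to 24.8% under those scalings.

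From 15 h to 24 h the genes parted. Fth1 (0.26 ± 0.09, limma, adjusted p = 0.0372) and Slc40a1 (0.72 ± 0.24, adjusted p = 0.0423) were higher at 24 h, and Blvra (-0.58 ± 0.16, adjusted p = 0.0166) and Alas1 (-0.55 ± 0.11, adjusted p = 0.00124) were lower. Of all genes 22.4% were called, 12.3% higher and 10.2% lower. Hmox1 was 0.71 ± 0.28 higher, with all 24 h arrays above all 15 h arrays and an adjusted p of 0.0858. The 2 higher calls were close to the threshold: Slc40a1 lost its call under 22 of 32 alternative settings and Fth1 under 12, median scaling, no scaling and the authors' values among them for both. Higher genes were 54.6% of all calls, and 24.5% to 38.5% under those 3 scalings. Alas1 and Blvra kept their calls under all 3, but Blvra lost its call without replicate 1 of 15 h (-0.45, adjusted p = 0.0531), without 24 h replicate 3 (-0.54, adjusted p = 0.0659) and in 3 of the 4 fits within a chip, where Alas1 lost its call too. Without replicate 1 of 15 h, Hmox2 was called lower (-0.52, adjusted p = 0.0182) and Blvrb higher (0.59, adjusted p = 0.00469).

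Within the chips, labelled and matched, the 24 h change of Hmox1 was 4.22 to 5.20, of Blvrb 1.30 to 1.52, of Fth1 0.90 to 1.11, of Slc40a1 0.90 to 1.36, of Ftl1 0.24 to 0.44, of Hmox2 -1.17 to -1.10 and of Tfrc -1.26 to -0.45. At 15 h it was 3.63 to 4.42 for Hmox1, 0.87 to 1.35 for Blvrb, 0.59 to 0.90 for Alas1, 0.67 to 0.79 for Fth1, 0.26 to 0.50 for Ftl1, -1.31 to -0.55 for Hmox2 and -1.22 to -0.08 for Tfrc. Fitted with either chip as a block, Hmox1 changed by 3.96 to 4.09 at 15 h and 4.63 to 4.77 at 24 h, and the other called genes by within 0.05 of the values above. At 8 h, 7 of the 10 genes were called within matched chip 2, 6 of them lower and Hmox1 higher by 0.54 (limma, adjusted p = 0.000829), on 2 control arrays and 1 rotenone array. In that fit 13.2% of all genes were called, 7.13% higher and 6.06% lower.

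Known regulators of Hmox1 were measured on the same arrays. Of 9 tested, 5 were higher and 1 lower at 15 h, where 25.4% of all genes were called higher and 24.7% lower. At 24 h, 6 were higher and 2 lower, where 27.4% and 27.3% of all genes were. With the other scalings 1 to 3 were higher and 2 lower at 15 h, and 3 or 4 higher and 3 lower at 24 h. Of all genes, 7.47% to 12.7% were then higher and 40.9% to 46.8% lower at 15 h. At 24 h it was 8.18% to 14.7% and 46.2% to 59.2%. The median log2 change of the regulators was 0.57 at 15 h and 0.90 at 24 h. With those scalings it was -0.045 to 0.071 at 15 h and 0.064 to 0.308 at 24 h. Nfe2l2, which encodes NRF2, was higher by 1.75 ± 0.12 at 15 h (limma, adjusted p = 1.66e-08) and 1.91 ± 0.12 at 24 h (adjusted p = 1.96e-09). Atf4, the factor of the integrated stress response, was higher by 1.03 ± 0.16 (adjusted p = 5.61e-05) and 1.85 ± 0.16 (adjusted p = 7.6e-08). Maff, a small MAF partner of NRF2, was higher by 0.72 ± 0.15 (adjusted p = 0.00073) and 1.69 ± 0.15 (adjusted p = 9.7e-08). Bach1, the heme-binding repressor of Hmox1, was not called at either time (0.33 ± 0.18, adjusted p = 0.131, and -0.16 ± 0.18, adjusted p = 0.478). Its relative Bach2 was lower by -1.17 ± 0.17 at 15 h (adjusted p = 2.83e-05) and -0.64 ± 0.17 at 24 h (adjusted p = 0.00403). Keap1, which holds NRF2 down, was lower at 24 h (-0.26 ± 0.10, adjusted p = 0.0305). With no scaling the 15 h calls of Atf4 (adjusted p = 0.0627) and Maff (adjusted p = 0.136) were lost. Nfe2l2, Bach2 and Keap1 kept these directions under all 4 scalings.

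Of 13 other NRF2 targets, 9 were higher and 1 lower at 15 h, where 25.4% of all genes were called higher and 24.7% lower. At 24 h, 11 were higher and 0 lower, where 27.4% and 27.3% of all genes were. With the other scalings 8 or 9 were higher and 3 lower at 15 h, and 9 to 11 higher and 1 or 2 lower at 24 h. Their median log2 change was 0.89 at 15 h and 1.35 at 24 h, and 0.59 to 0.83 at 15 h and 0.61 to 0.89 at 24 h with those scalings. Srxn1, which restores oxidised peroxiredoxins, changed by 2.89 ± 0.24 (limma, adjusted p = 1.47e-07) and 3.56 ± 0.24 (adjusted p = 6.38e-09). Gclm, a subunit of the enzyme that starts glutathione synthesis, changed by 2.12 ± 0.13 (adjusted p = 8.69e-09) and 2.90 ± 0.13 (adjusted p = 7.4e-11). Slc7a11, the cystine importer, changed by 2.46 ± 0.14 (adjusted p = 4.76e-09) and 2.65 ± 0.14 (adjusted p = 5.56e-10). At 8 h limma called 0 genes of the regulator and target lists, and 0.434% of all genes.

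**Figure D4:**
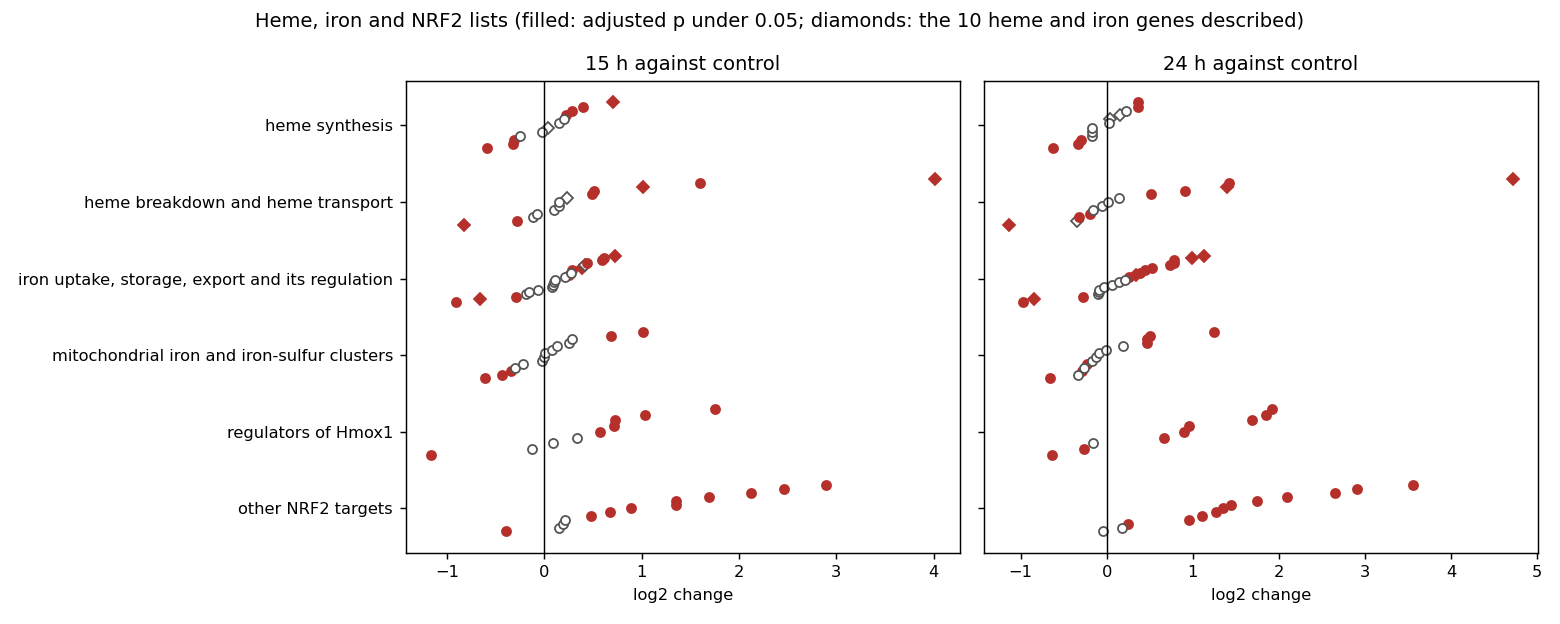
Log2 change against vehicle control (horizontal axis) of each tested gene in 6 lists, after 15 h (left) and 24 h (right) of rotenone, with filled symbols where the adjusted p is below 0.05 and diamonds for the 10 genes. Values are after quantile normalization. Hmox1 lies farthest right in both panels, and most NRF2 targets lie to the right. The regulators lie on both sides of 0, with a median of 0.57 at 15 h and 0.90 at 24 h, and the heme synthesis and iron-sulfur lists also lie on both sides.

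The direction of the other heme and iron pathway genes depended on the scaling. Under quantile normalization 25.4% of all genes were called higher and 24.7% lower at 15 h, and 27.4% and 27.3% at 24 h. Under the 3 other scalings 40.9% to 46.8% of all genes were called lower at 15 h and 46.2% to 59.2% at 24 h, and 7.47% to 12.7% and 8.18% to 14.7% higher. Of 10 other genes of heme synthesis, limma called 3 as higher and 3 as lower at 15 h, and 2 as higher and 3 as lower at 24 h, while with the other scalings 0 were higher at either time, 5 or 6 were lower at 15 h and 7 or 8 at 24 h. Uros, which closes the porphyrin ring, was lower by -0.59 ± 0.11 at 15 h (limma, adjusted p = 0.000334) and -0.62 ± 0.11 at 24 h (adjusted p = 0.000169). Of 9 other genes of heme breakdown and transport, 3 were higher and 1 lower at 15 h, and 3 higher and 2 lower at 24 h, while with the other scalings 1 was higher at each time, 2 or 3 were lower at 15 h and 3 to 5 at 24 h. Hebp1, a heme-binding protein of the cytosol, was higher by 1.60 ± 0.15 (adjusted p = 3.23e-07) and 1.43 ± 0.15 (adjusted p = 5.99e-07), and at 24 h by 0.61 to 0.87 under the other scalings. Uros was then lower by -1.24 to -1.10 at 24 h.

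Of 16 other genes of iron uptake, storage, export and its regulation, 5 were higher and 2 lower at 15 h, and 7 higher and 2 lower at 24 h, while with the other scalings 2 to 4 were higher and 3 to 5 lower at 15 h, and 4 or 5 higher and 4 to 8 lower at 24 h. The shares over all genes, 25.4% higher and 24.7% lower at 15 h and 27.4% and 27.3% at 24 h, are those under quantile normalization. With the other scalings the shares were 7.47% to 12.7% higher and 40.9% to 46.8% lower at 15 h. At 24 h they were 8.18% to 14.7% and 46.2% to 59.2%. Heph, the membrane ferroxidase that works with ferroportin, was higher by 0.61 ± 0.10 at 15 h (limma, adjusted p = 7.48e-05) and 0.78 ± 0.10 at 24 h (adjusted p = 4.58e-06). Lcn2, the siderophore-binding protein of inflammation, was detected on 3 of 3 arrays at 24 h and 0 of 4 controls. Its 24 h signal was at least 1.35-fold higher than in controls. This bound sets its 24 h mean against the lowest detected signal of the control arrays. No p is given for Lcn2, because the 24 h arrays alone meet the filter of detection on at least 3 arrays. Those are the arrays where it is high. Slc22a17, its proposed receptor, was lower by -0.91 ± 0.14 and -0.97 ± 0.14 (adjusted p = 7.89e-05 and 2.99e-05). With the other scalings the 24 h change was 0.39 to 0.68 for Heph and -1.70 to -1.54 for Slc22a17. The iron regulatory protein Ireb2 was lower by -0.29 ± 0.10 at 15 h (adjusted p = 0.0318) and -0.28 ± 0.10 at 24 h (adjusted p = 0.0343) by its brightest probe, but 0.14 and 0.07 by the mean of its probes, so its probes disagree. Slc11a2, the divalent metal transporter that takes iron out of endosomes, was not called (adjusted p = 0.0536 and 0.334).

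Of 14 genes of mitochondrial iron and iron-sulfur clusters, 2 were higher and 3 lower at 15 h, and 4 higher and 3 lower at 24 h, while with the other scalings 1 or 2 were higher and 7 lower at 15 h, and 1 or 2 higher and 7 to 9 lower at 24 h. Bola3, which helps deliver clusters to mitochondrial enzymes, was higher by 1.01 ± 0.11 (limma, adjusted p = 2.24e-06) and 1.24 ± 0.11 (adjusted p = 1.42e-07). Cisd1, a cluster protein of the outer mitochondrial membrane, was lower by -0.44 ± 0.13 (adjusted p = 0.00881) and -0.66 ± 0.13 (adjusted p = 0.000356). With the other scalings Bola3 was 0.45 to 0.71 higher and Cisd1 -1.42 to -1.23 lower at 24 h.

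Markers of cell types changed over the same hours. The summed normalized signal of 8 detected neuron markers of 11 listed was 12639 to 14355 in controls, 12535 to 14378 at 8 h, 4152 to 5433 at 15 h and 3529 to 3827 at 24 h, a fall that was called for 6 of the 8 at 15 h, with 1 higher. That of 7 of 9 astrocyte markers was 14041 to 16031 in controls, 9813 to 14463 at 8 h, 29826 to 35289 at 15 h and 26330 to 27697 at 24 h. That of 10 of 14 microglia and macrophage markers was 1345 to 1512 in controls, 1330 to 1414 at 8 h, 2243 to 3095 at 15 h and 3934 to 4185 at 24 h, and Cx3cr1, Csf1r, Fcer1g and Itgam were not detected. That of 8 of 10 oligodendrocyte markers was 11473 to 12531 in controls, 7126 to 9737 at 8 h, 9282 to 14415 at 15 h and 4270 to 4713 at 24 h. At 24 h, 0 neuron markers were higher and 7 lower, 5 astrocyte markers higher and 2 lower, 8 microglia markers higher and 0 lower, and 0 oligodendrocyte markers higher and 6 lower. The erythroid markers Hbb-b1, Hbb-bt and Alas2 were not detected. All these sums and counts are after quantile normalization, and the markers were not counted under the other scalings. Of all genes, 25.4% were called higher and 24.7% lower at 15 h, and 27.4% and 27.3% at 24 h. The part of these shifts in the heme and iron values was not tested.

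Across the 13 arrays, control and rotenone together, the genes whose log2 values were most like those of Hmox1 were Phf10 (Pearson r = 0.995), Srxn1 (0.995), Osgin1 (0.995), Med7 (0.993) and Itgb1 (0.993). Srxn1 and Osgin1 were on the list of NRF2 targets. Among the 10 genes, the values of Hmox1 went with those of Fth1 (r = 0.95), Blvrb (0.92), Ftl1 (0.92), Slc40a1 (0.80) and Alas1 (0.69), and against those of Hmox2 (r = -0.93) and Tfrc (r = -0.47). With Blvra (0.07) and Fech (0.00) it showed next to no relation. These are descriptions over 13 arrays that share 4 groups, and most of each value is the difference between the groups.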

How the data were processed

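The deposited probe table gives each probe's bead signal as an intensity that was not scaled between arrays. Per the file headers, a gene profile from BeadStudio 3.2.6 gives detection as a fraction, from which the detection p was taken as its complement. A further table by the authors holds a ratio, signal over the array's median over the median of the controls (recomputed, largest relative difference 3.75e-07). Detection was carried to probes by matching signals. For all 13 samples the matching profile array has another replicate label of the same group, and 102 per-array columns of the profile were not used.

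Signals were background corrected by normexp (offset 50), log2 transformed and quantile normalized. Probes with a detection p under 0.05 on at least 3 arrays were kept (14359), and the brightest per gene was tested in limma 3.58.1 (R 4.3.3). All 4 groups shared 1 linear model with 9 residual degrees of freedom and a trended eBayes prior, and p-values were adjusted by Benjamini-Hochberg over 11057 genes. Intervals are 95%. The test was checked on simulated data.

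The members and gene lists were chosen with earlier results of these data known. All members are named, and other genes are those of the lists, by smallest adjusted p at 24 h, with 8 set by name; some list genes are not reported here. The 32 alternative settings covered background, scaling, filter, probe choice, chip, replicate number, array weights and leaving out each array. The number of arrays limits the precision.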

Additional observations from a re-analysis of the deposited data

Results flagged for a closer look

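In the controls, replicate 4 of Fth1 stood at 12.88, where the nearest of the other 3 was 12.64, and replicate 3 of Slc40a1 stood at 7.64, where the nearest was 6.79. Both gaps are wide for a group of 4, and chance gives such a gap in about 1 of 20 groups.

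The rotenone effect differed between 15 h and 8 h, by the test of the difference in limma, for Hmox1 (4.14, adjusted p = 1.73e-08), Hmox2 (-0.73), Blvra (0.61), Blvrb (1.37), Fth1 (1.07), Ftl1 (0.34), Slc40a1 (0.96) and Alas1 (1.11, adjusted p = 3.82e-07). It differed between 24 h and 15 h for Blvra (-0.58), Fth1 (0.26), Slc40a1 (0.72) and Alas1 (-0.55, adjusted p = 0.00124). All times share the same controls, so these values are the differences between the rotenone groups.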

How the results depend on the processing

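Over the 50 values of the 10 genes and 32 alternatives, 1479 kept the call or its absence, 71 lost the call, 45 gained it and 5 reversed. A change of sign counted as a reversal only where either fit had a call. Values called in neither fit could change sign and still count as kept. Hmox1 at 8 h, at 0.12 without control replicate 3 in place of -0.13, is an example. The reversals were Alas1 at 24 h (-0.56 median scaling, -0.70 no scaling, -0.46 authors' values), Ftl1 at 24 h (-0.003, no scaling) and Hmox1 at 8 h (0.54 within matched chip 2). Genes outside the 10 reversed with median scaling, no scaling and the authors' values for Iscu at 15 h (-0.38, -0.47, -0.36) and at 24 h (-0.23, -0.37, -0.13) and Aco1 at 24 h (-0.14, -0.28, -0.094), with no scaling for Slc48a1 (-0.037), Nfe2l1 (-0.045) and Ppox (-0.064) at 15 h and Por (-0.076) and Ppox (-0.069) at 24 h, with the mean of probes for Ireb2 (0.14 at 15 h and 0.066 at 24 h), and within matched chip 2 for Bach1 at 24 h (0.28). The count of the 10 genes called at 8 h (0) was 1 with the matched chip as a block and 7 within matched chip 2 or with array weights. At 15 h (7) it was 4 within labelled chip 2, for 15 h against 8 h (8) it was 4 there and 5 within matched chip 1. For 24 h against 15 h (4) it was 2 with the labelled chip as a block and with each of the 3 scalings, 0 within labelled chips 1 and 2 and matched chip 1, and 7 with array weights. Leaving out 1 array gave 0 to 2 at 8 h, 6 to 8 at 15 h, 7 to 8 at 24 h, 8 for 15 h against 8 h and 1 to 5 for 24 h against 15 h. Whether the replicate numbers pair the samples could not be settled. The 18 correlations of same-numbered samples had a median of -0.004 (-0.124 to 0.215), against 0 (-0.257 to 0.202) for other pairs. The own number was the best match for 7 of 13 samples. The numbers are themselves in doubt, as all 13 samples match an array with another replicate label. With the replicate block the counts were 0, 8, 7, 8 and 3. Over all genes, the 48 calls at 8 h became 17 with the replicate block or only the groups compared, 2654 with array weights, 0 to 3 within labelled chips, 3 and 1458 within matched chips, and 10 to 184 with 1 array left out. The 5543 at 15 h became 2549 and 3625 within labelled chips and 3516 within matched chip 1, the 6054 at 24 h became 3065 within labelled chip 1 and 3711 within matched chip 1, and the 5652 for 15 h against 8 h became 2573 within labelled chip 2. The 2481 for 24 h against 15 h became 363 to 5045 within chips and 4810 with array weights. The cause of these differences was not tested. Fits within 1 chip have 1 or 2 arrays a group and assume that a lone array varies like the others.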
